A study of Mus musculus with 6 samples.

Results

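The genes described here handle vitamin A and its active derivative, retinoic acid. They are 9 genes, chosen by name, of the 19938 genes that the arrays measure with a probe set assigned to exactly 1 gene symbol. Each of the 9 had 1 such probe set, so no choice between probe sets was needed: Crabp1, Crabp2, Rbp4 and Stra6 bind or take up retinoids, Aldh1a1, Aldh1a2 and Aldh1a3 make retinoic acid, Cyp26b1 breaks it down, and Rarb is a receptor that retinoic acid itself induces. The genes were measured in cultured dermal cells of neonatal C57BL/6 mice, on 6 one-colour Affymetrix arrays of total RNA. The 3 arrays named DMSO are read as cells cultured without the compounds, and the 3 named FR as cells given the treatment of the series design, forskolin and RepSox at 20 µM each, for 2 days. Forskolin activates adenylyl cyclase and raises cyclic AMP, and RepSox inhibits the type I receptor kinase of TGF-β. As both compounds were given together, the effect of each alone cannot be told apart. Whether the arrays of 1 group represent different cultures or litters is not stated in the labels, and the p-values therefore cover the spread among these samples, which may be technical.

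Retinol travels in blood on RBP4 and can enter cells through STRA6. Retinol dehydrogenases turn it into retinal, and the ALDH1A enzymes oxidise retinal to retinoic acid. In the cytoplasm CRABP2 carries retinoic acid to its nuclear receptors, the RAR and RXR proteins, while CRABP1 is known for holding it in the cytoplasm and passing it to the CYP26 enzymes that inactivate it. In skin, retinoic acid acts on keratinocyte differentiation, on hair follicles and on fibroblasts of the upper dermis, where Crabp1 is a known marker.

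Expression is given as log2 RMA values, a relative scale on which a step of 1 means 2-fold, and a change is the mean of the 3 FR arrays less that of the 3 DMSO arrays. Changes were tested with limma, with the Benjamini-Hochberg adjustment over all 19938 genes, and a gene passed at adjusted p under 0.05. Over all genes the median change was 0.05 and the median level was 6.21 in DMSO and 6.26 in FR. Olfactory receptor genes, which skin cells are not thought to use, served as a measure of background: 95% of these 1027 genes had a mean under 5.65 in DMSO and under 5.92 in FR. Dermal fibroblast markers were well above that level, all 12 of the 12 listed, but most of them changed with FR, 5 higher and 6 lower. The exception was the receptor gene Pdgfra, at 11.16 in DMSO and 11.13 in FR. Of 10 immune markers, 2 lay above it.

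Of the 9 retinoid genes, 4 changed: Crabp2, Rbp4 and Cyp26b1 rose with FR and Crabp1 fell. The 3 retinoic acid synthesis genes, Stra6 and Rarb did not pass. Across all genes 27.9% passed, 13.4% higher and 14.5% lower, and with the arrays centred on their medians the split was 1880 higher and 3447 lower in place of 2671 and 2888. Among the 9, Crabp2 alone changed 2-fold or more, as did 3.13% of all genes, 1.63% higher and 1.5% lower. The median change of the 9 genes was 0.27, beside 0.05 for all genes and 0.14 for the 1027 olfactory receptor genes, which also read higher with FR. The ranges of the FR and DMSO arrays did not overlap for 7 of the 9 genes, which was also the case for 43.9% of all genes.

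**Figure D1:**
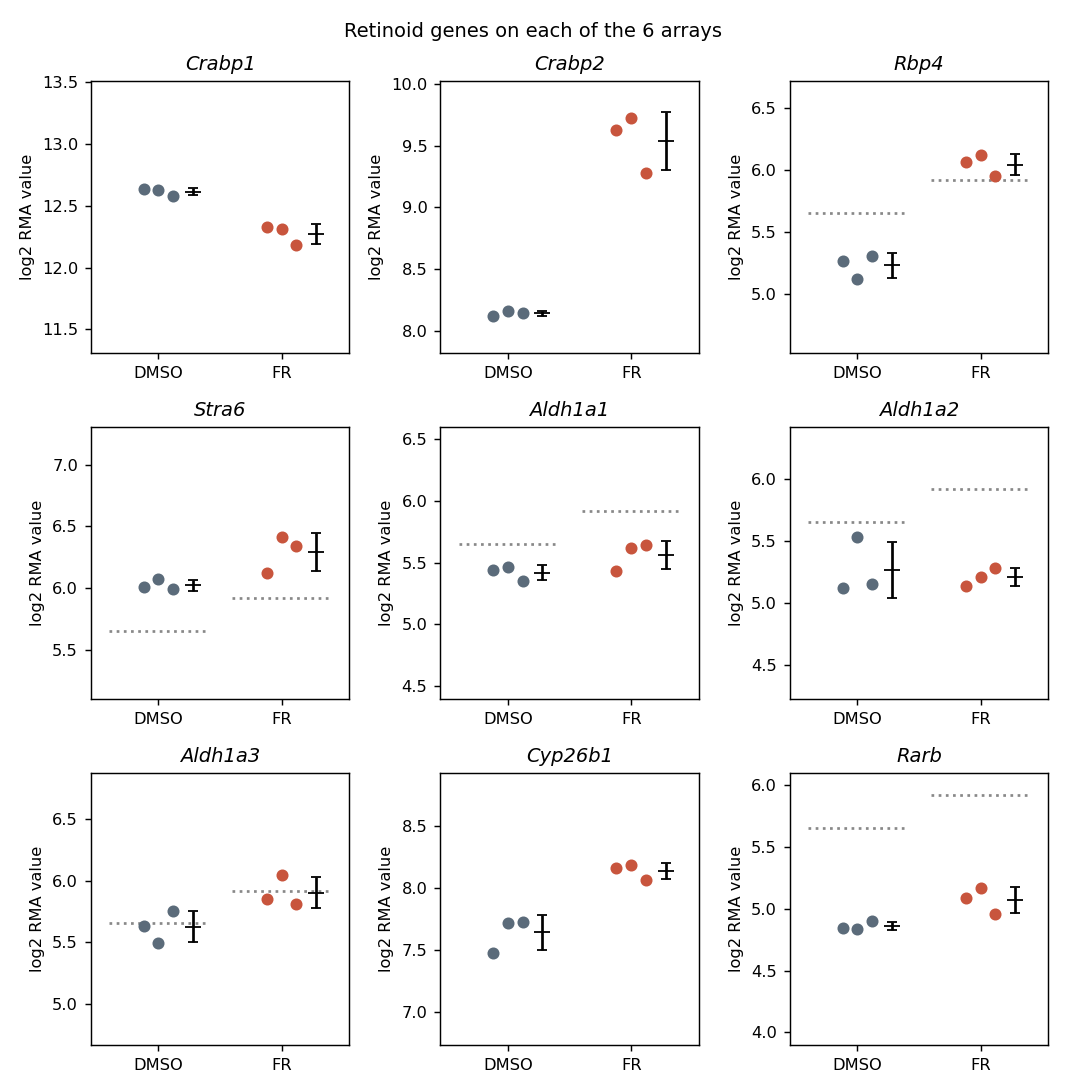
Level of each of the 9 retinoid genes on every array, as log2 RMA values, in panels that all span the same height. Points are the 3 DMSO arrays (grey) and the 3 FR arrays (red), black bars are mean ± SD, and dotted lines mark the background level of each group (5.65 in DMSO, 5.92 in FR). Crabp2 stands furthest apart between the groups, and Aldh1a1, Aldh1a2 and Rarb lie under the dotted lines on all arrays.

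The transcripts of Crabp2 and Crabp1, whose proteins bind retinoic acid, moved in opposite directions. Crabp2, which encodes the carrier to the nuclear receptors, read 8.12, 8.16 and 8.15 on the DMSO arrays and 9.62, 9.72 and 9.28 on the FR arrays. The DMSO arrays lay within 0.04 of each other, every FR array was higher by at least 1.12, and FR replicate 3 was the lowest of its group. The mean went from 8.14 ± 0.02 to 9.54 ± 0.23 (SD, n = 3), which is 2.63-fold higher (log2 change 1.40, SE 0.11, limma adjusted p = 6.34e-06). By size this was change number 264 among the 19938 genes.

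Crabp1, its cytoplasmic counterpart, read 12.63, 12.62 and 12.58 on the DMSO arrays and 12.33, 12.31 and 12.18 on the FR arrays. All FR arrays lay below all DMSO arrays, with a gap of 0.25 between the groups. The mean fell by 0.34 on the log2 scale (SE 0.08, 95% confidence interval -0.52 to -0.16, limma adjusted p = 0.0112), which is 1.26-fold lower. By size this was change number 4513 among the 19938 genes. The levels were near the top of the table, whose highest value on any array was 13.75. Within each array, the Crabp2 value rose against the Crabp1 value by 1.73 with FR. This unequal change had p = 0.1 in a two-sided exact permutation test, the smallest that 3 against 3 arrays can give, and adjusted p = 0.267 over the 4 pairs of related genes compared.

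Rbp4, which encodes the retinol carrier of blood and is also secreted by fat cells, read 5.27, 5.12 and 5.31 on the DMSO arrays and 6.06, 6.12 and 5.95 on the FR arrays. No FR array reached down to a DMSO array, and the gap between the groups was 0.64. The change was 0.81 (SE 0.09, limma adjusted p = 6.47e-05), a measured 1.76-fold rise. The DMSO mean lay under the background level of DMSO, and set against that level the FR mean was 1.31-fold higher. In FR the mean of 6.05 lay 0.13 above the background level of that group.

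Stra6, the gene of the retinol uptake receptor, read 6.01, 6.07 and 5.99 on the DMSO arrays and 6.12, 6.42 and 6.34 on the FR arrays. The groups did not overlap, but FR replicate 1 lay only 0.05 above the highest DMSO array. The change of 0.27 missed the threshold (95% confidence interval 0.06 to 0.48, limma adjusted p = 0.0565). It passed without FR replicate 1 (change 0.36, limma adjusted p = 0.0157) and with dim genes left out (limma adjusted p = 0.0268). The group means, 6.03 in DMSO and 6.30 in FR, lay not far above the background levels of 5.65 and 5.92.

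**Figure D2:**
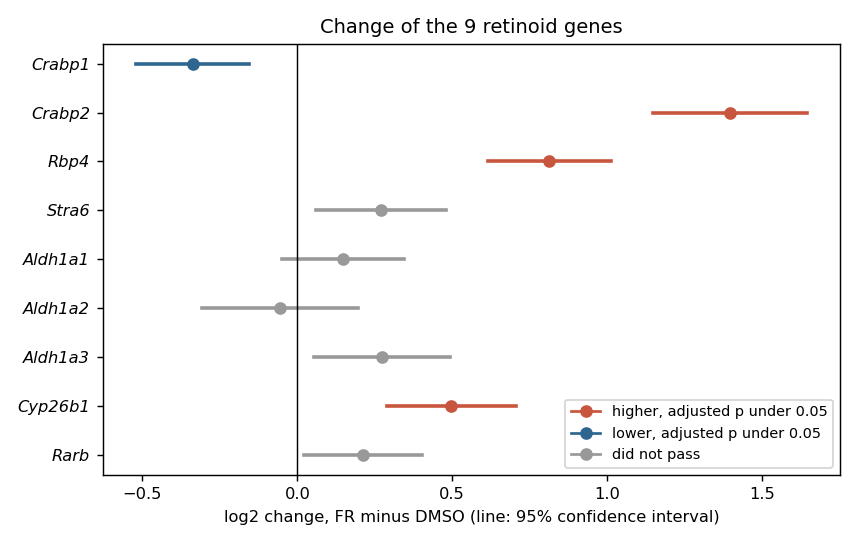
Change of the 9 retinoid genes on the log2 scale, FR minus DMSO, with lines for the 95% confidence interval from limma and n = 3 arrays per group. Crabp2 (1.40), Rbp4 (0.81) and Cyp26b1 (0.50) passed as higher and Crabp1 (-0.34) as lower, while the other 5 genes, in grey, did not pass.

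The 3 retinal dehydrogenase genes, whose enzymes catalyse the last step of retinoic acid synthesis, had group means under the background level in both groups. Aldh1a1 read 5.44, 5.46 and 5.35 on the DMSO arrays and 5.44, 5.62 and 5.64 on the FR arrays, so that the groups overlapped (change 0.15, limma adjusted p = 0.245). Aldh1a2, the main synthesis gene of the embryo, read 5.12, 5.53 and 5.16 in DMSO and 5.14, 5.21 and 5.29 in FR, with DMSO replicate 2 above all the others (change -0.06, 95% confidence interval -0.31 to 0.20, limma adjusted p = 0.740). Without that replicate the sign turned, to 0.075. Aldh1a3, the form known from epithelia including epidermis, read 5.63, 5.50 and 5.75 in DMSO and 5.85, 6.05 and 5.81 in FR. These groups were 0.06 apart, and the change of 0.27 missed the threshold (95% confidence interval 0.05 to 0.49, limma adjusted p = 0.0636). The 3 pairs among these genes differed in their change by 0.13 to 0.33 in size, with exact permutation p from 0.2 to 0.4. The arrays measured transcripts, not the enzymes.

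Cyp26b1, which encodes an enzyme that inactivates retinoic acid, read 7.48, 7.72 and 7.72 on the DMSO arrays and 8.16, 8.19 and 8.07 on the FR arrays. All FR arrays were higher than all DMSO arrays by at least 0.34, and DMSO replicate 1 was the lowest. The mean went from 7.64 ± 0.14 to 8.14 ± 0.06 (SD, n = 3), which is 1.41-fold higher (log2 change 0.50, SE 0.09, limma adjusted p = 0.00267). The other hydroxylase genes of this family, Cyp26a1 and Cyp26c1, lay under the background level in both groups, with changes of -0.05 (limma adjusted p = 0.785) and -0.001 (limma adjusted p = 0.994).

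Rarb, the gene of retinoic acid receptor β, is a textbook target of retinoic acid, through a direct repeat in its promoter. It read 4.85, 4.83 and 4.90 on the DMSO arrays and 5.08, 5.16 and 4.96 on the FR arrays. The groups were 0.06 apart, and the change of 0.21 missed the threshold (95% confidence interval 0.02 to 0.40, limma adjusted p = 0.0909). With quantile normalization the change was 0.12 (limma adjusted p = 0.382) and with cyclic loess 0.09 (limma adjusted p = 0.493). All 6 values lay under the background level, so they give only an upper bound for the transcript.

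Promoter sequences from RefSeq (GRCm38.p6) were matched by symbol for 7 of the 9 genes, all except Crabp2 and Aldh1a3, in 12 windows that run from 250 bases before a transcript start to 50 after it. They were searched on both strands for letters that the receptors of retinoic acid, CREB and SMAD proteins are known to bind. Shown first is the Rarb promoter, because it held the receptor element, and second that of the Rbp4 start that held the core of a cyclic AMP response element. Each line gives the 250 bases before the start, 5′ to 3′ on the strand of the gene, and capitals mark the match. The Rarb window is chr14:16575477-16575726 (minus strand), and the Rbp4 window is chr19:38124812-38125061 (minus strand).
Rarb: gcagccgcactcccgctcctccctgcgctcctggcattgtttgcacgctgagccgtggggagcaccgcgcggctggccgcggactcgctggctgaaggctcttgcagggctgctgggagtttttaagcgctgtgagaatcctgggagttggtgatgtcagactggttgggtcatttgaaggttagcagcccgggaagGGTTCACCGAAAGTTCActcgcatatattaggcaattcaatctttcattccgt
Rbp4: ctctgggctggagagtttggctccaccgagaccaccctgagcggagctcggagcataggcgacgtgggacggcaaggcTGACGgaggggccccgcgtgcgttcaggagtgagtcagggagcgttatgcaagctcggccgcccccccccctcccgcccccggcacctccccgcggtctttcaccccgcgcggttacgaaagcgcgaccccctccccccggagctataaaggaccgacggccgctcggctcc

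The capitals in the Rarb promoter, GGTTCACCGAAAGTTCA, are a DR5 element, a pair of receptor binding cores in direct repeat with 5 bases between them, and run from base -53 to base -37 before the start. DR5 elements were found in 32 of the 32851 windows of the table, which is 0.097%. Among the 7 matched genes Rarb was the only 1 with a DR5, and none held a DR2 (0.268% of all windows) or the strict core AGGTCA (16.3%), whose letters a DR5 or DR2 can contain. The capitals in the Rbp4 promoter are TGACG, the core of the cyclic AMP response element, from base -172 to base -168. This core was present in 20.8% of all windows and in 23.0% of genes with windows and, among the 7 genes, in Rbp4 only. The whole element TGACGTCA, which contains the core, was in 1.79% of all windows and in none of the 7 genes. The SMAD letters CAGAC were in 4 of the 7 genes, Aldh1a1, Cyp26b1, Rarb and Stra6, beside 53.2% of the 27025 genes with windows. By window they were in 6 of the 12, beside 49.6% of all windows. The longer GTCTAGAC was in none of the 7 and in 0.213% of windows. A match describes the sequence only, and factor binding was not measured here.

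Further genes of the pathway were taken from lists by role. Of 74 such genes 69 were measured, and 14 rose, 8 fell and 47 did not pass, so that 31.9% passed beside 27.9% of all genes. Their median change was 0.09. Among the 14 measured genes for retinol binding, uptake and storage, 2 rose and none fell. Dgat1, whose enzyme makes triglycerides and can also esterify retinol, went from 7.35 ± 0.08 to 8.42 ± 0.14 (2.10-fold, limma adjusted p = 1.36e-05). Lpl, the lipoprotein lipase gene, rose by 0.76 from a level of 10.88 (limma adjusted p = 8.02e-05), and is counted again among the adipocyte markers below. Only 3 of these 14 genes lay above background in either group, and Lrat, whose enzyme makes retinyl esters, was not among them (levels 4.78 and 4.64, change -0.14, limma adjusted p = 0.567).

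The 20 genes of retinol dehydrogenases and retinal reductases split, with 3 higher, 2 lower and 15 that did not pass. Dhrs3 encodes a reductase that turns retinal back to retinol and is itself induced by retinoic acid. It read 8.42, 8.61 and 8.62 in DMSO and 7.72, 7.75 and 7.73 in FR, a fall by 0.81 with no overlap (limma adjusted p = 5.11e-05). Rdh11, another retinal reductase gene, fell by 0.54 (limma adjusted p = 0.000695). The 3 that rose, Rdh12 (0.76), Rdh7 (0.53) and Rdh9 (0.40), had both group means under the background level. The call for Rdh9 (limma adjusted p = 0.0170) was lost by quantile normalization (limma adjusted p = 0.0766), by cyclic loess (0.119), without DMSO replicate 2 (0.0516) and without DMSO replicate 3 (0.0633). Rdh10, the main enzyme gene for the first oxidation of retinol in embryos, lay at 9.79 in DMSO and 9.57 in FR, and its change of -0.23 did not pass (limma adjusted p = 0.119).

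Of 8 nuclear receptor and partner genes, 3 rose, 2 fell and 3 did not pass. Rorb, an orphan nuclear receptor gene of the ROR family, read 5.65, 5.39 and 5.77 on the DMSO arrays and 8.25, 7.74 and 7.85 on the FR arrays. Its DMSO mean of 5.60 was under the background level and the measured rise was 5.07-fold (log2 change 2.34, SE 0.14, limma adjusted p = 7.27e-07). Set against the background level of DMSO, the FR mean was 4.90-fold higher. In FR the background level was itself higher, at 5.92, beside the FR mean of 7.95. The retinoic acid receptor genes Rara and Rarg fell by 0.41 (limma adjusted p = 0.00673) and 0.30 (limma adjusted p = 0.0191). The Rarg call was lost without DMSO replicate 2 (limma adjusted p = 0.0645), without DMSO replicate 3 (0.0763) and without FR replicate 3 (0.0528). Fabp5, whose protein can carry retinoic acid to PPARδ, rose by 0.49 from a level of 10.17 (limma adjusted p = 0.000946), and its other probe set gave 0.48. Rxrg rose by 0.37 with both means under the background level (4.15 and 4.52), and the partner receptor genes Rxra (change 0.24) and Rxrb (0.16) did not pass. Of 8 cofactor genes, Ncoa1 rose by 0.39 (limma adjusted p = 0.00543) and 7 did not pass.

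Genes known to respond to retinoic acid went both ways. Of 21 measured, 5 rose, 6 fell and 10 did not pass, with a median change of -0.04. The share that passed was 52.4%, beside 27.9% of all genes. None of the 9 retinoid genes was in this list, although Rarb is itself induced by retinoic acid. The list does not separate genes by the direction of their response to retinoic acid. Rarres2, which encodes the secreted protein chemerin, read 6.52, 6.56 and 6.61 in DMSO and 8.65, 8.65 and 8.78 in FR, a 4.39-fold rise (log2 change 2.14, SE 0.08, limma adjusted p = 6.53e-08). The transcription factor gene Nr2f1 (COUP-TFI) read 6.38, 6.38 and 6.63 in DMSO and 8.08, 7.80 and 8.07 in FR and rose 2.87-fold (limma adjusted p = 2.37e-06). Rai2 rose by 0.82, the related factor gene Nr2f2 by 0.79 and the epidermal transglutaminase gene Tgm1 by 0.48. In the other direction, Rai14, which encodes an actin-associated protein, read 9.23, 9.06 and 9.06 in DMSO and 7.96, 7.88 and 7.82 in FR and fell by 1.23 on the log2 scale (limma adjusted p = 2.58e-06). Dhrs3 and Rarg, given above, also belong to this list, as do Hoxb4, a homeobox gene that fell by 0.67, Meis1, a Hox partner gene that fell by 0.54, and Btg2, an antiproliferative gene that fell by 0.49.

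**Figure D3:**
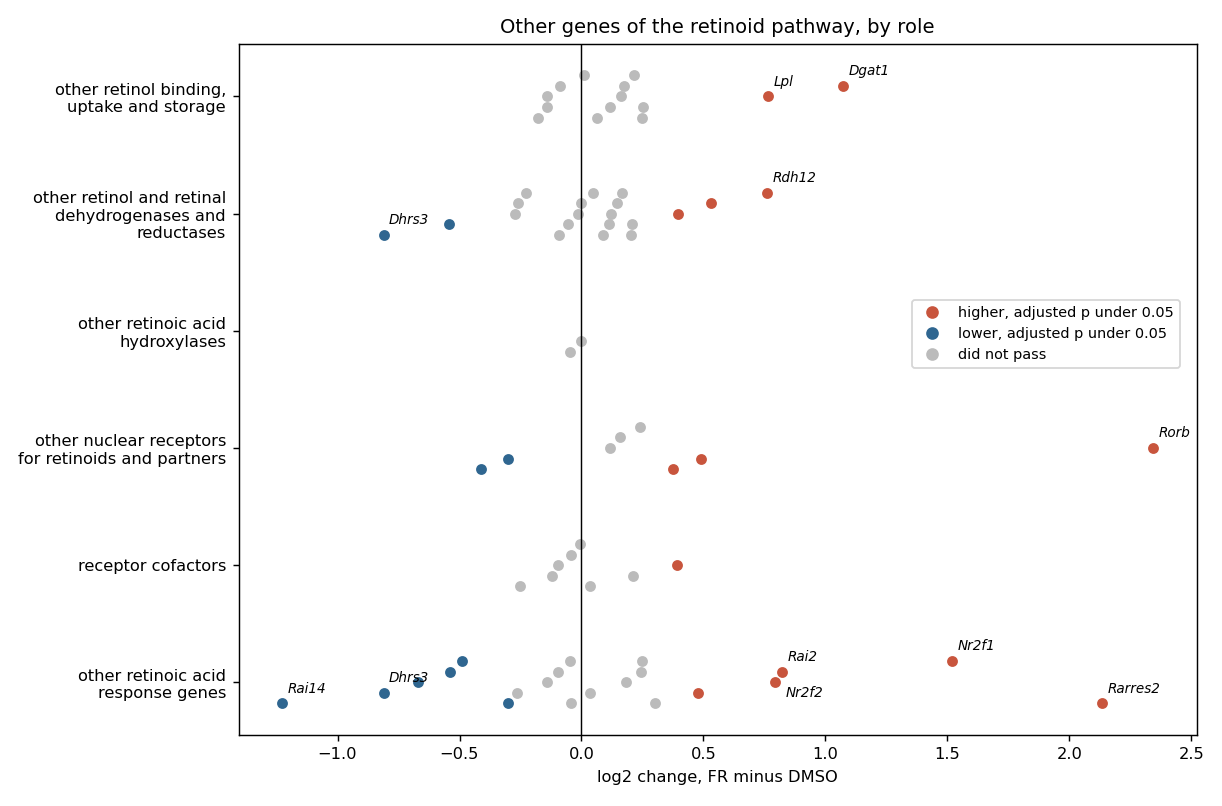
Log2 change, FR minus DMSO, of the other measured genes of the retinoid pathway, 1 point per gene in rows by role. Red points passed as higher, blue points as lower and grey points did not pass (limma, adjusted p under 0.05, n = 3 arrays per group), and genes that passed with a change of at least 0.7 in size are named. Rorb (2.34) and Rarres2 (2.14) lie furthest to the right and Rai14 (-1.23) furthest to the left.

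Markers of dermal fibroblasts and of other skin cell types moved with the treatment. Among the 12 fibroblast markers, 5 rose and 6 fell. The collagen gene Col1a2 fell by 1.57, Col1a1 by 1.09, the receptor gene Pdgfrb by 0.96 and the surface marker gene Thy1 by 0.71. In the other direction, the proteoglycan gene Lum rose by 2.17 and Fbln1 by 1.03. The median change of -0.33 fell in a gap between Col6a1 (-0.63) and Pdgfra (-0.03), so it does not describe any single marker. The average over that list lay between 10.59 and 10.64 on DMSO arrays and between 10.50 and 10.55 on FR arrays. Keratinocytes are known to express Crabp2 and Aldh1a3 as well. Of 20 keratinocyte markers 16 rose and none fell, and the average over the list lay between 5.85 and 5.94 on DMSO arrays and between 6.85 and 6.95 on FR arrays. Krt14, a keratin gene of basal keratinocytes, read 7.43, 7.37 and 7.49 in DMSO and 8.95, 9.12 and 8.97 in FR (change 1.58). Changes in that list ran from 0.05 to 2.18, the largest being that of Krt5. The change of Crabp2 was 1.40. Epcam, Krt1 and Sfn, from the same list, had changes of 0.05, 0.06 and 0.08 that did not pass. Dermal papilla and condensate markers, whose cells are known to express Crabp1 too, rose in 8 of 15 cases with none lower, and the mean of that list went from between 6.71 and 6.82 to between 7.26 and 7.35. Adipocyte markers, whose cells also secrete RBP4, rose in 8 of 11 cases with none lower, from list means of 6.52 to 6.54 to list means of 7.83 to 7.92. Skeletal muscle markers rose in 8 of 10 cases with none lower (list means of 5.83 to 5.94 in DMSO and 6.73 to 6.85 in FR), and of 10 melanocyte markers 4 were called higher and 1 lower. Of 10 endothelial markers 3 rose and 1 fell, and of 10 immune markers 1 rose. Several markers that rose had both group means under the background level. These were Krt15 and Lor (keratinocyte), Prom1, Hhip and Notum (dermal papilla) and Myf5 (skeletal muscle). Tyrp1 and Kit (melanocyte), Tek and Emcn (endothelial) and Cd74 (immune) were also under it. Some marker calls were lost under other processing, as given below. The part of these cell types in the changes of Crabp2, Crabp1 and Rbp4 was not tested. In bulk RNA, fewer cells of a type and less RNA per cell cannot be told apart.

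To place Crabp2 among all genes, the values of every gene were centred on its own DMSO mean and compared array by array. Of 18356 other genes, Gsta4 and Corin were closest over the 6 arrays, with mean absolute differences of 0.05 for both. Gsta4 encodes a glutathione transferase and read 8.54, 8.70 and 8.34 on the FR arrays (change 1.41). Corin encodes a serine protease known from the dermal papilla and read 7.42, 7.70 and 7.12 (change 1.35). In all 3 genes FR replicate 2 was the highest of the FR arrays and FR replicate 3 the lowest. Gsta4 and Corin were picked for nearness to Crabp2 on these same arrays, so their shared order follows largely from that choice. The order was also seen in 5 of 12 fibroblast, 4 of 20 keratinocyte and 3 of 15 dermal papilla markers. It held for 3 of 10 skeletal muscle and 0 of 11 adipocyte markers, and for 1 of 10 in each of the endothelial, immune and melanocyte lists. Its share over all genes was not counted. FR replicate 3 was the lowest of its group for 6 of the 9 retinoid genes and for 40.2% of all genes.

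**Figure D4:**
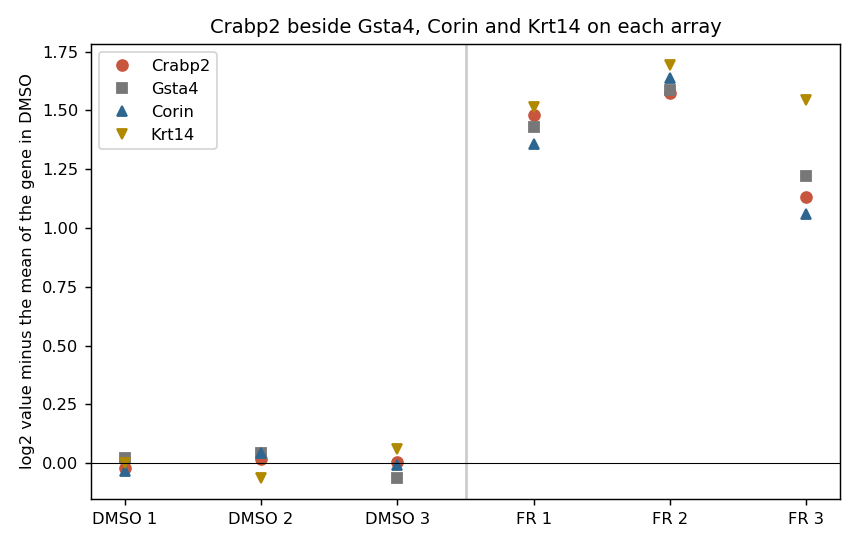
Log2 values of Crabp2, Gsta4, Corin and Krt14 on each of the 6 arrays, each gene minus its own mean over the DMSO arrays. All 4 genes are highest in FR replicate 2, and Crabp2, Gsta4 and Corin are lowest of the FR arrays in FR replicate 3. Krt14 is 1 of 20 keratinocyte markers and does not stand for them all. Krt5, Krt16 and Perp are lowest of the FR arrays in FR replicate 2, and 4 of the 20 share the order of Crabp2. Gsta4 and Corin were picked for their nearness to Crabp2 on these same arrays.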

How the data were processed

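The authors deposited 1 log2 value per probe set and array, 35556 probe sets on 6 arrays, made by RMA in the oligo package per the submitters' processing notes, which give no versions here. RMA usually includes background correction, quantile normalization and a summary over probes, and can understate changes of dim probe sets. Arrays were grouped by title. Gene names came from the platform annotation (21789 with 1 symbol, 1621 with several, 12146 with none), and the brightest probe set was taken for each gene. Coordinates are given for the RefSeq promoter windows only, since the build of the array is not named.

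FR was compared with DMSO with limma 3.58.1 in R 4.3.3 (lmFit, eBayes, group as the only term, two-sided), with Benjamini-Hochberg adjustment over 19938 genes. The number of arrays limits the precision. Lists are described by counts and medians. On simulated data with 200 of 19938 genes changed, 48% of changes of 0.5 and 95% of changes of 1 (log2) were recovered, with 4 false calls among 147. In the real data 5559 genes passed, which makes the adjusted threshold less strict than in the simulation. The simulated rates therefore do not give the power of the real comparison. The members and lists were chosen with earlier results of these data known. All 9 members are named, up to 5 passing genes of each pathway list by size of change (further ones of the response list, the lists' unchanged examples and markers after their values were seen), and for members changed 2-fold the 2 genes of nearest pattern. Alternatives were 3 normalizations, leaving out dim genes, averaging probe sets, 2 kinds of variance handling, the replicate block and leaving out each array. Some listed genes were not analysed here.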

Additional observations from a re-analysis of the deposited data

How the results depend on the processing

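Under the 14 alternatives, Crabp2, Rbp4, Cyp26b1 and Crabp1 stayed past the threshold in the same direction, with changes of 1.31 to 1.53, 0.71 to 0.86, 0.42 to 0.57 and -0.39 to -0.29, and adjusted p of up to 0.000108, 0.000733, 0.0142 and 0.0461. Of the 9 genes 4 to 5 passed when 1 array was left out. Stra6 passed with dim genes left out, where fewer genes were tested (change 0.27, limma adjusted p = 0.0268), and its change ranged from 0.21 to 0.36 with 1 array left out (limma adjusted p from 0.0157 to 0.157). The change of Aldh1a2 ranged from -0.13 to 0.07 with 1 array left out, and was 0.075 without DMSO replicate 2. With dim genes left out, Rarb and the 3 Aldh1a genes gave no value. Over the other 13 alternatives the change of Rarb ranged from 0.09 to 0.27 (limma adjusted p from 0.0520 to 0.493). That of Aldh1a3 ranged from 0.18 to 0.34 (limma adjusted p from 0.0584 to 0.218). Both were smallest with cyclic loess. Of the 22 other pathway genes that passed, 20 passed under all alternatives they were run in, with 0 changes of sign among the 22, and 12 further genes passed under some alternative. Among the markers, calls were lost for Hhip (10 of 13 alternatives), Pmel (10 of 14), Lor (8 of 13) and Krt10 (7 of 14). They were also lost for Notum (6 of 13), Fstl1 (6 of 14), Cd74 (3 of 13) and Pax7 (2 of 14). Sox2, Vwf, Ivl, Cd79a and Plin4 passed under some alternative only. Replicate numbers did not pair the arrays: correlations of same-numbered deviations were -0.07, 0.05 and -0.03, and 1 of the 3 DMSO arrays correlated best with its own number. With the replicate block 4977 genes passed in place of 5559, and 4 of the 9 retinoid genes passed. Signal near background limits Rarb, Rbp4, Stra6 and the Aldh1a genes.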

Other observations

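Promoter windows with a DR5 belonged to 31 genes, of which 11 were measured, with Rarb and Cyp26a1 from the retinoid lists among them. Of these 11, 1 rose and 10 did not pass by limma, with a median change of 0.12. Over all genes 13.4% rose and 14.5% fell, with a median change of 0.05. The gene that rose was Ppbp, which encodes a platelet chemokine precursor, from 5.53 in DMSO to 7.53 in FR (log2 change 2.00, limma adjusted p = 4.99e-06). Its DMSO mean lay under the background level of 5.65. The search of all promoters for this element was described after the values of Rarb were seen.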
